A study of Mus musculus with 8 samples.

Results

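The thyroid hormone receptor genes Thra and Thrb and 8 genes known as thyroid hormone targets, Thrsp, Dio1, Me1, Gpd2, Klf9, Hr, Fgf21 and Bcl3, were followed in mouse AML12 hepatocytes with and without the oncoprotein v-erbA, a mutated thyroid hormone receptor. They were chosen by gene symbol from the platform annotation, which gave 25 of the 45037 probe sets and 10 of the 18192 genes named. AML12 is an established mouse hepatocyte line, and the second line is AML12 transfected with v-erbA. Each line was sampled untreated or with 1 µM retinoic acid (RA), at 3 h and at 24 h, which makes 8 combinations with 1 array each. Line, treatment and time follow the sample titles, because 3 of the 4 samples titled 24 h carry a description of 3 h. The labels do not say whether the v-erbA line is 1 clone, whether an empty vector was given to the control cells, or whether the medium held thyroid hormone. The line difference therefore holds v-erbA, transfection and clone together, and these cannot be told apart.

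Thyroid hormone enters the cell through membrane transporters, is activated or cleared by deiodinases, and acts through nuclear receptors that sit on DNA mostly as heterodimers with retinoid X receptors. Without hormone the receptors recruit corepressors and hold target genes down, and with hormone they exchange these for coactivators. In liver the targets include enzymes that supply NADPH and glycerol for lipid synthesis, mitochondrial shuttle enzymes and transcription factors. v-erbA binds the same kind of DNA elements, has lost the ability to respond to hormone and keeps the corepressors.

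Receptor binding elements are built from half-sites with the letters AGGTCA, often as a direct repeat with a gap of 4 bases. Windows of 250 bases before RefSeq transcript starts (assembly GRCm38.p6) were at hand for 8 of the 10 genes, 11 windows in all, those of Thra and Hr not being among them. The half-site was searched on both strands and stood in 1 of the 11 windows, a Thrb window, against 14.0% of all 32851 windows. The half-site repeated in the same direction after a gap of 4 bases stood in 0 of the 11 and in 0.0152% of all. A variant repeat, GGGTTA followed after 4 bases by AGGACA, was added after the Me1 sequence had been read, because it is the form known from the malic enzyme gene. Its match in the Me1 window was therefore certain in advance. It stood in no other of the 32851 windows, and nothing about Me1 is drawn from that rarity. The sequences are the window of Thrb with the half-site in capitals, from 184 to 179 bases before the start, and that of Me1, with its repeat in capitals, from 152 to 137 bases before the start. Those of Gpd2 and Klf9 are shown as the other targets whose signals differed most clearly between the lines, and they hold none of the 3 motifs. A match describes letters only, and the data do not show binding.
Thrb, chr14:17660710-17660959, plus strand: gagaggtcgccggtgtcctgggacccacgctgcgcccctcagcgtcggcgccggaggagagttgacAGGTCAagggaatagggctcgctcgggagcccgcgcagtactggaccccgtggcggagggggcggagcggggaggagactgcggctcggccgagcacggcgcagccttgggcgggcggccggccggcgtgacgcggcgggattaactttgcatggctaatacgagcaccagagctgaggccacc
Me1, chr9:86695915-86696164, minus strand: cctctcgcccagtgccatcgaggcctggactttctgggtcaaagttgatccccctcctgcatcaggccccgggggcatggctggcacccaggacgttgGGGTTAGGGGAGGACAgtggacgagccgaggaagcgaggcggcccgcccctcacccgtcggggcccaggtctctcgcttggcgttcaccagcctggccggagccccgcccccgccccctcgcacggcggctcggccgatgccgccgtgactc
Gpd2, chr2:57237428-57237677, plus strand: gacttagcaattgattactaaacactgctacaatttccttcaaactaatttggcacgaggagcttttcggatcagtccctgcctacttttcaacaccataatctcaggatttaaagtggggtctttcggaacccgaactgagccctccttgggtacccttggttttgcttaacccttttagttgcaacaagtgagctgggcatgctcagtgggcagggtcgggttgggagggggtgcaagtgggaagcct
Klf9, chr19:23140976-23141225, plus strand: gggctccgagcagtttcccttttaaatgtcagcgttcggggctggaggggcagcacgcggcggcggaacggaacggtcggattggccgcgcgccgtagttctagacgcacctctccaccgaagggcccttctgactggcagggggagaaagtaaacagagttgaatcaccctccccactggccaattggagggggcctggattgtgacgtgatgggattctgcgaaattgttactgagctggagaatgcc

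Signals are the deposited intensities in array units on a linear scale. The pooled median of all values, 73.5 units, is used as the level under which a probe set counts as dim, and a probe set was tested when at least 2 of the 8 arrays exceeded it. Of the 25 probe sets 13 exceeded the level on all 8 arrays, 6 on some and 6 were not tested, so that Thrb, Dio1 and Fgf21 had no tested probe set. Differences are given as log2(signal + 19.9) with the SE of a limma fit over all 8 arrays, which understates changes of dim probe sets. No combination was replicated. The p-values measure only the departure of these 8 arrays from a fit in which line, treatment and time add up, which may be technical.

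Array medians lay between 71.2 and 76.1 units. All 6 hepatocyte markers measured, among them Alb and Ttr, exceeded the level on all 8 arrays. Their summed signal was 25569 to 33304 units on AML12 arrays and 25554 to 29107 on v-erbA arrays; Afp and Serpina1b were higher and Apoa1 and Hnf4a lower with v-erbA, while Alb and Ttr did not pass. Markers of other cell types were partly present. Of 4 macrophage markers Ptprc and Cd68 lay under the level on all arrays, Csf1r above it on all 8 (78.5 to 190 units) and Adgre1 on 4. Of 4 endothelial markers Pecam1 and Cdh5 lay under it on all arrays, Kdr above it on 7 and Tek on 1. Of 5 fibroblast markers Pdgfrb lay under it on all arrays, and the 3 biliary markers above it on all 8. Summed signals in AML12 and v-erbA ran from 174 to 319 and 236 to 405 units for the macrophage list, 132 to 220 and 81.2 to 248 for the endothelial, 352 to 418 and 345 to 442 for the fibroblast and 3020 to 4760 and 2035 to 2941 for the biliary list. With limma, Acta2 (0.68 ± 0.13), Des (0.54 ± 0.12) and Krt7 (0.47 ± 0.08) were higher with v-erbA. Col1a2 (-0.48 ± 0.12) and Krt19 (-0.93 ± 0.07) were lower, while no tested macrophage or endothelial marker passed for the line. Des exceeded the level on 3 v-erbA arrays only and was tested through these alone. A higher value with v-erbA was thus built into its selection. Some markers removed by the filter did not overlap between the lines, though dim in both. Cd68 read 14.7 to 28.3 units in AML12 and 48.6 to 60.4 with v-erbA, and Ptprc 14.8 to 23.4 and 45.4 to 55.8. Pdgfrb read 25.9 to 39.6 units in AML12 and 2.40 to 17.5 with v-erbA. Pecam1, Cdh5 and Tek overlapped, and 9.96% of all removed probe sets showed no overlap. The part of other cell types in the line differences was not tested. Of 4 RA responsive genes, Nrip1 rose by 1.67 ± 0.11 with RA and Dhrs3 by 0.67 ± 0.10 (limma adjusted p = 0.000955 and 0.0187). Rarb and Cyp26a1 differed by 0.86 ± 0.18 and 0.23 ± 0.12 and did not pass. Rarb exceeded the level on 2 arrays only, both with RA, so that a higher value with RA was built into its selection.

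Thra, the receptor gene whose avian counterpart gave rise to v-erbA, was higher in the v-erbA line by 1 of its 3 probe sets. On probe set 1454675_at the AML12 arrays, in the order untreated 3 h, RA 3 h, untreated 24 h and RA 24 h, read 219, 203, 249 and 224 units, and the v-erbA arrays in the same order read 271, 293, 327 and 322. All 4 v-erbA arrays lay above all 4 AML12 arrays, and 35.2% of all tested probe sets likewise showed no overlap between the lines. The difference was 0.41 ± 0.06 (limma adjusted p = 0.000509), 0.39 at 3 h and 0.43 at 24 h. The other probe sets did not follow. On 1426997_at the AML12 arrays read 186, 185, 254 and 201 units and the v-erbA arrays 202, 213, 199 and 206, so the lines overlapped, and the 95% interval of the difference was -0.20 to 0.20. On 1443952_at the difference was 0.03 ± 0.09 (limma adjusted p = 0.807). The probe sets of Thra thus differed among themselves by 0.41 in the line effect, against a median of 0.20 and a 95th percentile of 0.75 over 5419 genes with more than 1 tested probe set. The v-erbA transcript was not analysed here, and whether probes of Thra detect it was not tested.

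Thrb, the second receptor gene and the main hepatic form in adult liver, lay under the level on all 8 arrays. Its probe set 1422202_at read 59.2, 61.2, 69.5 and 62.3 units in AML12 and 45.0, 17.7, 35.9 and 48.8 in the v-erbA line. The v-erbA arrays were all lower than the AML12 arrays, but both sides are dim, and neither a fold nor a test is given. Among the 20081 probe sets that the filter removed, 9.96% also showed no overlap between the lines.

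Among the targets, the enzyme genes Me1 and Gpd2 were lower in the v-erbA line. Me1 encodes cytosolic malic enzyme, which supplies NADPH for fatty acid synthesis. Its probe set 1416632_at read 2454, 2610, 2153 and 2427 units in AML12 and 1597, 1624, 1263 and 1319 with v-erbA. Every v-erbA array lay below every AML12 array, the means differing 1.66-fold. The share of all tested probe sets without overlap between the lines, 35.2%, applies here and to Gpd2 and Klf9 below. The difference was -0.73 ± 0.05 (limma adjusted p = 2.25e-06), -0.65 at 3 h and -0.82 at 24 h. The other Me1 probe set, 1430307_a_at, read 3406, 3482, 3048 and 3419 units in AML12 and 2409, 2371, 2019 and 2145 with v-erbA, again without overlap, with a difference of -0.58 ± 0.04 (limma adjusted p = 4.04e-06).

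Gpd2 encodes the mitochondrial, flavin-linked glycerol-3-phosphate dehydrogenase of the glycerophosphate shuttle, a classical marker of thyroid status in liver. On its brightest probe set, 1417434_at, AML12 arrays read 1254, 1136, 950 and 1080 units and v-erbA arrays 785, 718, 621 and 574. The lines did not overlap, and the means differed 1.64-fold (difference -0.70 ± 0.06, limma adjusted p = 1.64e-05). A second probe set, 1428323_at, gave -0.55 ± 0.06 (limma adjusted p = 5.66e-05), also without overlap. The remaining 2 were closer to the level and passed less clearly. 1452741_s_at gave -0.34 ± 0.12 and 1428324_at -0.67 ± 0.24 (limma adjusted p = 0.0370 and 0.0373). 1428324_at entered the test only through its 2 untreated AML12 arrays, so that a lower value with v-erbA was built into its selection. On 1428324_at 1 of the 4 pairs went the other way, since the AML12 arrays read 88.9, 33.6, 92.9 and 54.6 units against 22.9, 42.2, 27.7 and 39.8 with v-erbA. The call of 1452741_s_at was lost when any of 5 arrays was left out (AML12 untreated 3 h, AML12 RA 24 h, v-erbA RA 3 h, v-erbA untreated 24 h or v-erbA RA 24 h), with differences from -0.35 to -0.20. The call of 1428324_at was lost without any 1 of the 4 untreated arrays, with differences from -0.54 to -0.49.

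Thrsp encodes a small nuclear protein of lipogenic tissues that responds quickly to thyroid hormone. Both tested probe sets were near the level, each above it on 4 of 8 arrays, and lower with v-erbA. Probe set 1424737_at read 77.7, 98.9, 86.4 and 93.7 units in AML12 and 38.6, 57.6, 59.4 and 52.1 with v-erbA. It exceeded the level on the 4 AML12 arrays only, through which alone it was tested, so that a lower value with v-erbA was built into its selection, and was at least 1.21-fold lower with v-erbA (-0.61 ± 0.11, limma adjusted p = 0.00158). With a larger offset, the 50th percentile of all values, that difference was -0.38. On 1422973_a_at AML12 read 145, 177, 55.5 and 62.4 units and v-erbA 89.3, 94.9, 51.1 and 57.3. The difference was -0.39 ± 0.13 (limma adjusted p = 0.0285), -0.69 at 3 h but -0.09 at 24 h, where all 4 arrays were dim. This call was lost without any 1 of the 4 arrays of 3 h, with differences from -0.34 to -0.29. The third probe set, 1444166_at, lay between 29.9 and 58.7 units on all arrays and was not tested.

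Klf9 moved the other way. It encodes a zinc finger transcription factor of the Krüppel-like family, induced directly by thyroid hormone in several tissues. All 6 tested probe sets were higher with v-erbA, each in 4 of 4 pairs, by 0.15 to 0.51 (limma adjusted p from 8.10e-05 to 0.00626). On 1436952_at, with the largest difference, AML12 arrays read 218, 217, 220 and 218 units and v-erbA arrays 298, 324, 326 and 327. On 1428288_at AML12 read 2562, 2716, 2671 and 2988 units and v-erbA 3040, 3352, 3420 and 3507. Neither probe set overlapped between lines. The means differed 1.46-fold on 1436952_at, 1.32-fold on 1422264_s_at, 1.22-fold on 1428288_at and on 1436763_a_at, 1.14-fold on 1428289_at and 1.11-fold on 1456341_a_at. The last has the highest mean signal of the 6, 5110 units, and 1436952_at the lowest, 269 units. A seventh probe set, 1452723_at, lay between 34.1 and 49.8 units on all arrays and was not tested.

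**Figure D1:**
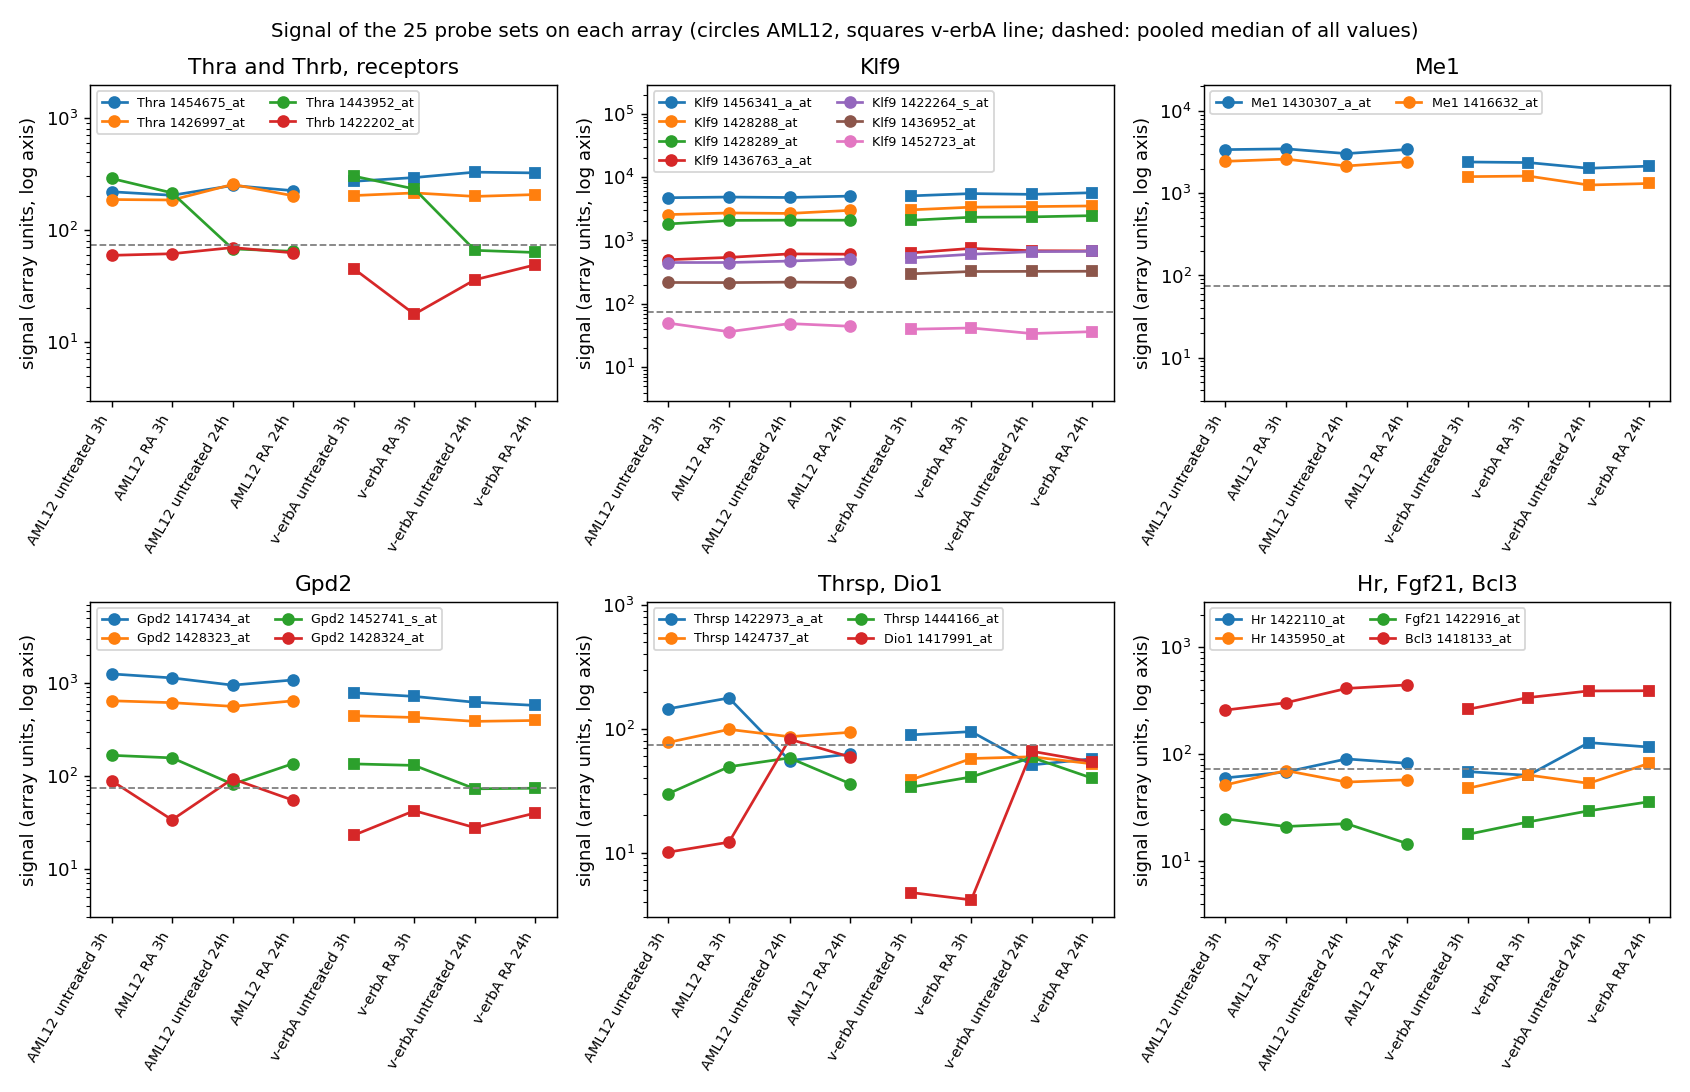
Signal in array units (log axis) of all 25 probe sets on the 8 arrays, 1 point per array, in 6 panels by gene, with lines joining the arrays of a cell line; circles are AML12, squares the v-erbA line, the dashed line is the pooled median of 73.5 units. Me1 and the brighter Gpd2 probe sets step down and Klf9 steps up from AML12 to v-erbA, while Thra 1443952_at and Dio1 change with time.

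Hr and Bcl3 did not pass for the line. Hr encodes hairless, a corepressor that binds thyroid hormone receptors and is itself induced by the hormone in brain. Its probe set 1422110_at differed by 0.23 ± 0.11 (limma adjusted p = 0.105) and passed only without the AML12 RA array of 3 h (0.32, adjusted p = 0.0371). The second, 1435950_at, exceeded the level on 1 array and was not tested. It was higher with RA in 4 of 4 pairs, at 48.1 to 55.1 units untreated and 57.9 to 82.6 with RA, which did not overlap; 2.13% of the removed probe sets showed no overlap for RA. Bcl3 encodes a nuclear member of the IkappaB family that binds NF-kappaB subunits. It read 259, 304, 413 and 446 units in AML12 and 264, 340, 391 and 393 with v-erbA, so that the lines overlapped, and differed by -0.02 ± 0.07 (95% interval -0.18 to 0.15, limma adjusted p = 0.858).

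Dio1 and Fgf21 were dim. Dio1 encodes the deiodinase that converts thyroxine to the active hormone in liver and is a standard readout of thyroid status. Its probe set 1417991_at read 10.1, 12.1, 82.5 and 59.2 units in AML12 and 4.76, 4.15, 65.9 and 54.0 with v-erbA. Only the untreated AML12 array of 24 h exceeded the level, so no fold is given between times or lines. All 4 arrays of 3 h lay below all 4 of 24 h, and 10.8% of the probe sets removed by the filter likewise showed no overlap between times. Fgf21, which encodes a hormone secreted by liver in fasting, lay between 14.7 and 36.1 units on all 8 arrays.

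Counted over all members, 15 of the 19 tested probe sets passed for the line, 7 higher and 8 lower, from 5 genes. The background is high: 49.7% of the 24955 probe sets tested passed, 25.4% higher and 24.3% lower. The median difference of the 19 was close to 0, as 7 and 8 probe sets went opposite ways, and that of all tested was 0.02. The 6 probe sets above the level on only some arrays gave 0 higher and 4 lower, among them Thrsp 1424737_at and Gpd2 1428324_at, which were tested only through AML12 arrays and add to the lower count by selection. Probe sets of 1 gene are not independent, since Klf9 gives 6 of the 7 that were higher and Gpd2 4 of the 8 that were lower. Among the 13 probe sets above the level on all 8 arrays, 11 passed (7 higher, 4 lower), against 53.4% of all 19266 of that kind.

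**Figure D2:**
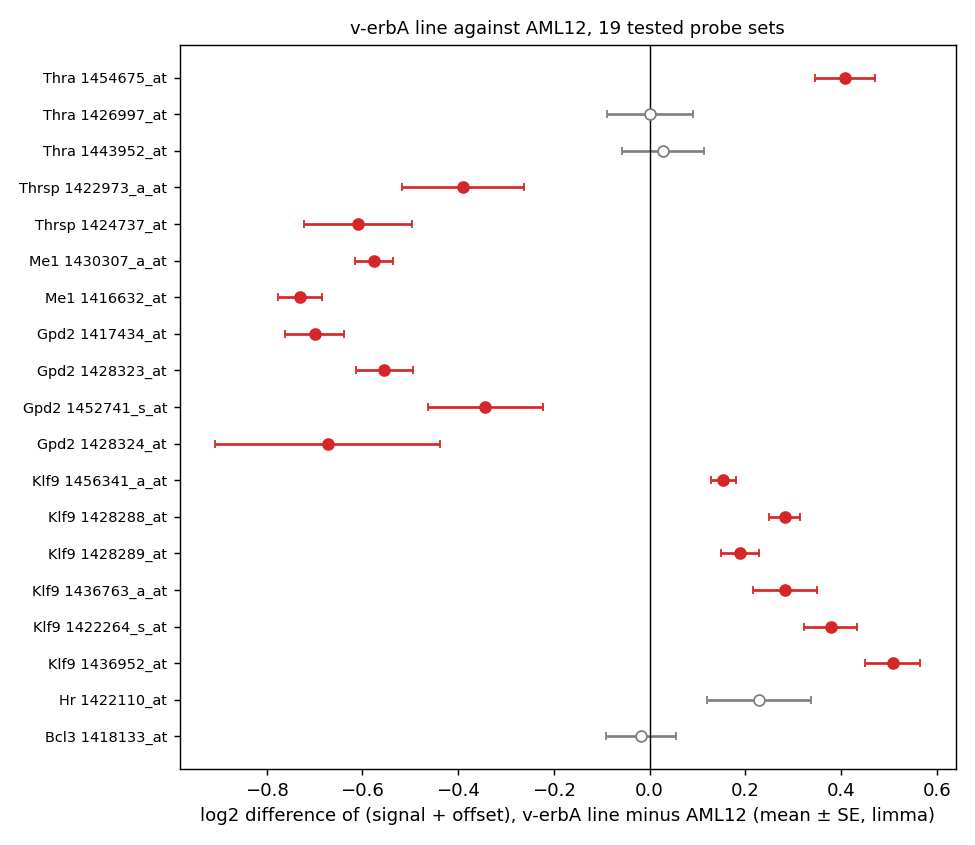
Log2 difference between the v-erbA line and AML12 with its SE for the 19 tested probe sets; filled red points passed (limma adjusted p under 0.05), open grey points did not. Thrsp, Me1 and Gpd2 lie left of 0, Klf9 and 1 Thra probe set right of it, and 2 Thra probe sets, Hr and Bcl3 did not pass.

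RA, the ligand of the retinoic acid receptors that share the retinoid X partner with thyroid hormone receptors, left no member past the threshold. With limma 0 of 19 passed, 5 had an unadjusted p under 0.05, and without the mean-variance trend 0 passed as well; of all 24955 probe sets 1.15% passed and 2886 had an unadjusted p under 0.05. The 5 were 3 probe sets of Klf9, with 1428288_at at 0.11 ± 0.03 (limma adjusted p = 0.212), Thra 1443952_at at -0.21 ± 0.09 (adjusted p = 0.372) and Bcl3 at 0.17 ± 0.07 (adjusted p = 0.424). For the better measured probe sets, 95% intervals are given for the RA difference averaged over both lines and both times. They do not bound a response in 1 line or at 1 time alone. They ran from -0.18 to 0.10 for Thra 1454675_at, from -0.02 to 0.19 for Me1 1416632_at, from -0.19 to 0.09 for Gpd2 1417434_at and from 0.03 to 0.18 for Klf9 1428288_at. The median RA difference of the 19 was 0.08, against -0.01 over all tested.

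The design asks whether RA responses differ with v-erbA. For the members 0 of 19 passed that interaction with limma, 1 had an unadjusted p under 0.05, and the share over all probe sets was 0.00%, with 471 of them at an unadjusted p under 0.05. The 1 was Gpd2 1428324_at, which was lower with RA in both AML12 pairs and higher in both v-erbA pairs, a difference of responses of 1.24 ± 0.27 (limma adjusted p = 1). That probe set exceeded the level on the 2 untreated AML12 arrays only, so that a lower value with RA in AML12 was built into its selection. The brighter Gpd2 probe set 1417434_at gave -0.14 ± 0.13. Opposite signs of the kind seen on 1428324_at were found on 3 of the 19 probe sets and on 7.06% of all tested. Gpd2 1428324_at adds to the 3 by selection, and the others were Thra 1426997_at and Klf9 1436952_at. For Me1 1416632_at the 95% interval of the difference of responses was -0.31 to 0.13, and for Klf9 1428288_at -0.20 to 0.13, so differences of that size remain possible.

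Between 3 h and 24 h 11 of the 19 probe sets passed, 5 higher and 6 lower at 24 h, from 7 genes, against 30.4% of all tested (16.6% higher and 13.8% lower). Centring the arrays on their medians gave 2 higher and 6 lower. The count was 7 without the untreated v-erbA array of 3 h and 7 without that of 24 h. Thra 1443952_at, Thrsp 1422973_a_at and Hr 1422110_at were tested only through the time point at which they were higher. They add to the count of 11 by selection. For the 13 probe sets above the level on all 8 arrays the count was 7 (4 higher, 3 lower), against 28.6% of that kind. With only that kind fitted, 6 of the 13 passed, against 28.8%. Culture time and any processing of the arrays by time point cannot be told apart. Markers of other cell types also passed with time. Col1a1 (-2.34 ± 0.13), Csf1r (-0.81 ± 0.12), Adgre1 (-0.67 ± 0.11) and Krt19 (-0.56 ± 0.07) were lower and Acta2 (1.26 ± 0.13) higher at 24 h. Csf1r and Krt19 exceeded the level on all 8 arrays. Col1a1, Adgre1 and Acta2 exceeded it on 4 each, so that their direction may have been built into their selection. Summed signals at 3 h and 24 h ran from 315 to 405 and 174 to 263 units for the macrophage list, 81.2 to 143 and 197 to 248 for the endothelial, 345 to 442 and 374 to 427 for the fibroblast and 2713 to 4760 and 2035 to 3752 for the biliary list. Their part in the time differences was not tested.

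Among the tested probe sets the largest log2 change with time was on a Thra probe set, and the other 2 of that gene did not pass. 1443952_at read 287, 214, 67.6 and 64.3 units in AML12 and 301, 232, 65.7 and 62.8 in the v-erbA line. It exceeded the level at 3 h only and was tested through those arrays alone, as was Thrsp 1422973_a_at, so that a lower value at 24 h was built into the selection of both. It was at least 3.52-fold lower at 24 h (-1.70 ± 0.09, limma adjusted p = 3.86e-07), whereas 1454675_at differed by 0.17 ± 0.06 (adjusted p = 0.0667) and 1426997_at by 0.11 ± 0.09. The probe sets of Thra thus spread over 1.87 in the time effect (median 0.17 and 95th percentile 1.52 over 5419 genes). That spread rests on 1443952_at, whose lower value at 24 h was built into its selection. Genes also differ in their number of probe sets, on which a range depends, so no rank of Thra among genes is drawn from it. A similar split was seen for Thrsp, where 1422973_a_at was at least 1.73-fold lower at 24 h (-0.90 ± 0.13, limma adjusted p = 0.000509) and 1424737_at differed by 0.10 ± 0.11. RefSeq places the clock receptor gene Nr1d1 over part of Thra. Its own probe set, looked up after the Thra values had been seen, read 36.0, 36.3, 47.9 and 40.9 units in AML12 and 57.6, 55.4, 68.6 and 49.9 with v-erbA, under the level on all 8 arrays.

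Other members changed less with time. Bcl3 rose by 0.47 ± 0.07 (limma adjusted p = 0.000910), its 4 arrays of 24 h, 391 to 446 units, lying above the 4 of 3 h, 259 to 340 units; 17.9% of all tested probe sets showed no overlap between times. Hr 1422110_at read 60.3, 68.4, 90.6 and 82.6 units in AML12 and 69.0, 63.6, 129 and 117 with v-erbA. It was at least 1.43-fold higher at 24 h (0.53 ± 0.11, limma adjusted p = 0.00456), and was tested only through its arrays of 24 h, those of 3 h being dim. Me1 fell by 0.23 ± 0.05 on 1416632_at and by 0.15 ± 0.04 on 1430307_a_at (limma adjusted p = 0.00430 and 0.0220). Gpd2 fell by 0.28 ± 0.06 on 1417434_at and by 0.62 ± 0.12 on 1452741_s_at (adjusted p = 0.00745 and 0.00345), while 1428323_at differed by -0.11 ± 0.06 and did not pass. Klf9 rose by 0.11 to 0.18 on 3 of 6 probe sets (limma adjusted p from 0.0308 to 0.0498). None of these 3 passed after centring. The call of 1428288_at was lost without any 1 array except AML12 untreated 24 h and v-erbA RA 24 h, that of 1428289_at without any except AML12 RA 24 h, and that of 1422264_s_at without any except the untreated AML12 arrays of 3 h and 24 h. For Me1 1430307_a_at the call was lost without AML12 untreated 3 h, v-erbA untreated 3 h, v-erbA untreated 24 h or v-erbA RA 24 h.

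**Figure D3:**
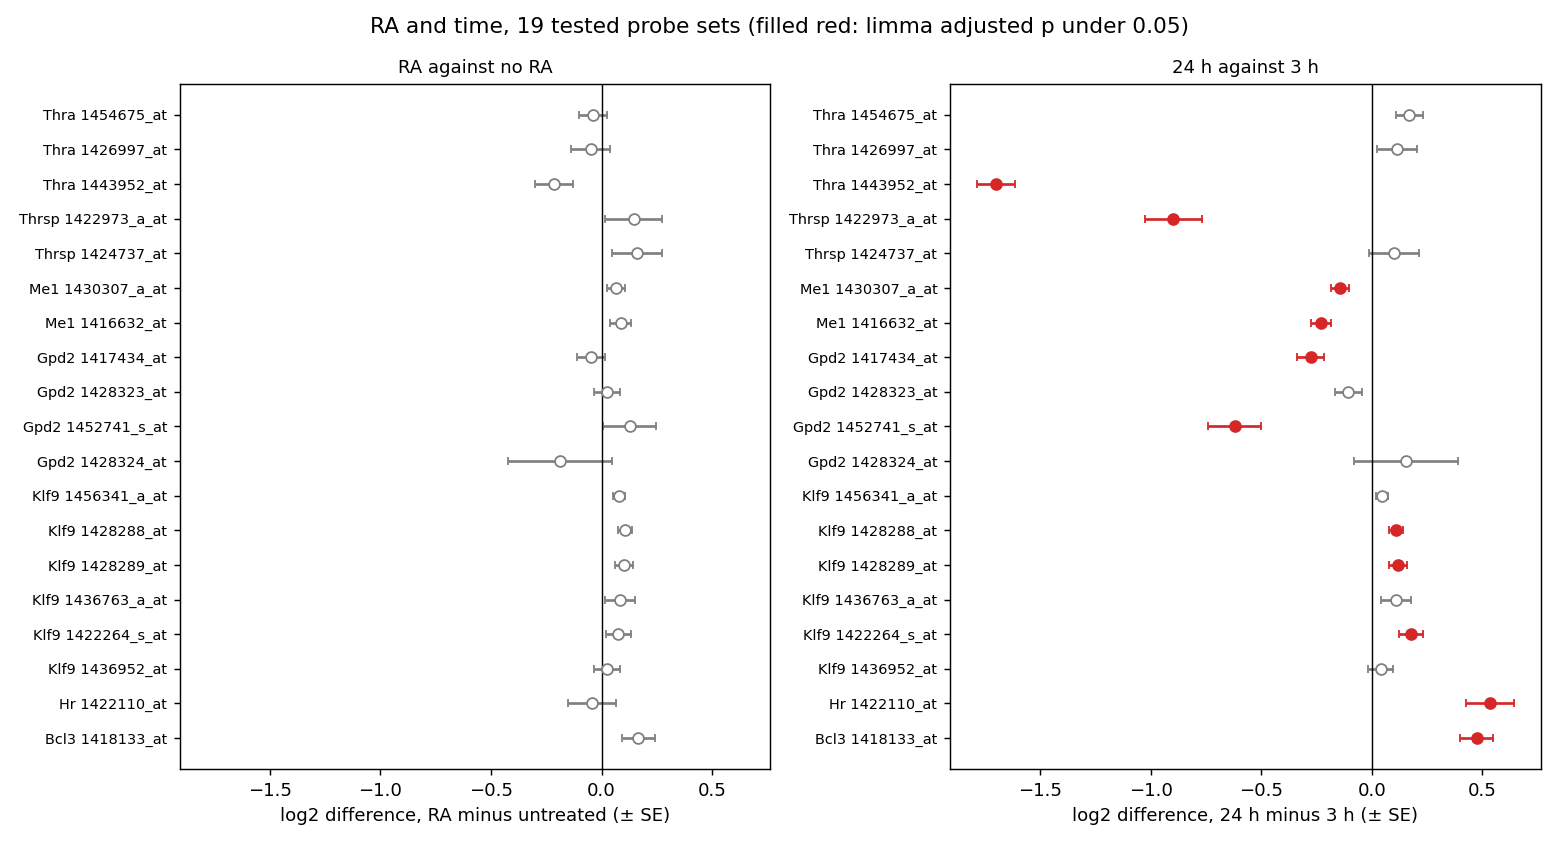
Log2 differences with their SE for the 19 tested probe sets, RA minus untreated on the left and 24 h minus 3 h on the right, on the same scale; filled red points passed (limma adjusted p under 0.05). No point passed for RA, and for time Thra 1443952_at stands at -1.70, apart from the other 2 Thra probe sets.

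For the difference between lines in the change with time, 0 of the 19 tested probe sets passed with limma and 2 had an unadjusted p under 0.05; over all tested 0.112% passed, and 2164 of 24955 had an unadjusted p under 0.05. For the difference between times in the RA response it was 0 of 19, 0 with an unadjusted p under 0.05, against 0.00801% and 1799 of all. The change of Thrsp 1422973_a_at from 3 h to 24 h was -1.20 in AML12 and -0.60 with v-erbA (difference 0.60 ± 0.17, 95% interval 0.22 to 0.98, limma adjusted p = 0.358). That of Hr 1422110_at was 0.34 and 0.73 (difference 0.39 ± 0.18, 95% interval -0.02 to 0.80, adjusted p = 0.591).

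The wider pathway was described with 3 further lists, each gene by its probe set with the highest mean. In hormone transport and deiodination 10 of 13 measured genes were tested, 2 rose, 4 fell and 4 did not pass for the line (49.7% of all probe sets passed, 53.4% with 1 probe set per gene). The median was -0.04. Serpina7, which encodes thyroxine-binding globulin, was higher with v-erbA, at 57.2 to 82.5 units in AML12 and 195 to 437 with v-erbA (1.92 ± 0.16, limma adjusted p = 1.05e-05). It exceeded the level on 5 arrays, among them all of the v-erbA line, and its AML12 arrays alone would not have met the filter. A higher value with v-erbA was thus built into its selection, and it adds to the higher count by selection. Slc16a10, an aromatic amino acid and thyroid hormone transporter, was lower, at 195 to 267 units in AML12 and 55.9 to 86.8 with v-erbA (-1.39 ± 0.12). Crym, a cytosolic thyroid hormone binding protein, was at least 1.06-fold lower. It exceeded the level on 3 arrays, all of AML12, and was tested through these alone. A lower value with v-erbA was thus built into its selection, and it adds to the lower count by selection. Slco1c1, a thyroxine transporter, passed as higher but exceeded the level on 2 arrays only. Both were of the v-erbA line, so that its direction was likewise built in. Without the untreated v-erbA array of 24 h, 3 genes of this list passed in place of 6. Ttr, which encodes the carrier transthyretin, differed by -0.01 ± 0.02, and the deiodinase gene Dio2 was dim on all arrays.

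Among receptor partners and coregulators 16 genes were tested, of which 5 rose, 4 fell and 7 did not pass, with a median of 0.06, against 49.7% of all probe sets passing, or 53.4% with 1 probe set per gene. Rxra, the partner receptor, fell by 0.91 ± 0.07 with v-erbA (394 to 608 units in AML12, 230 to 278 with v-erbA), while Rxrb differed by 0.02 ± 0.06 and Rxrg by 0.07 ± 0.11. Of the coactivators, Ncoa1 rose by 0.84 ± 0.08 and Ppargc1a was at least 1.39-fold higher, from under the level on all 4 AML12 arrays to 96.9 to 105 units, through which alone it was tested. The corepressor complex member Hdac3, a histone deacetylase, fell by 0.26 ± 0.05 (limma adjusted p from 5.54e-06 to 0.00216 for these 4 genes). With RA 1 of the 16 passed, against 1.15% of all probe sets, or 1.17% with 1 probe set per gene. It was Nrip1, which is also among the RA responsive genes used above to check the treatment.

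In the list of other thyroid hormone responsive liver genes 21 of 25 measured were tested, and 4 rose, 10 fell and 7 did not pass for the line, with a median of -0.20. Over all probe sets 25.4% were higher and 24.3% lower, with a median of 0.02. With 1 probe set per gene, as in this list, 53.4% passed in either direction. Apoa1, the chief apolipoprotein of HDL particles, read 1823 to 7093 units in AML12 and 200 to 742 with v-erbA (-2.98 ± 0.30, limma adjusted p = 3.97e-05). Nrg4, which encodes a neuregulin growth factor, read 308 to 578 units and 84.1 to 123 (-1.88 ± 0.13, adjusted p = 3.87e-06). In the other direction Igf1, the insulin-like growth factor, read 188 to 302 units in AML12 and 672 to 825 with v-erbA (1.52 ± 0.11, adjusted p = 4.64e-06), and Tfrc, the transferrin receptor, rose by 0.47 ± 0.07. Scd1, the stearoyl-CoA desaturase, fell by 1.75 ± 0.16 and Srebf1, the sterol regulatory factor of lipogenesis, by 0.42 ± 0.04. Fasn, Acaca and Acly, which act with Me1 in fatty acid synthesis, differed by -0.11 ± 0.06, -0.09 ± 0.07 and 0.05 ± 0.04 and did not pass, while Mid1ip1, which encodes a relative of the Thrsp protein, rose by 0.34 ± 0.07. Pgd, an enzyme of the pentose phosphate pathway that yields NADPH, fell by 0.81 ± 0.05, and G6pdx of the same pathway was not analysed here. With RA 1 of the 21 passed, Pdk4, a kinase that inhibits pyruvate dehydrogenase (0.57 ± 0.09, limma adjusted p = 0.0187). Of all probe sets 1.15% passed for RA, or 1.17% with 1 probe set per gene.

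**Figure D4:**
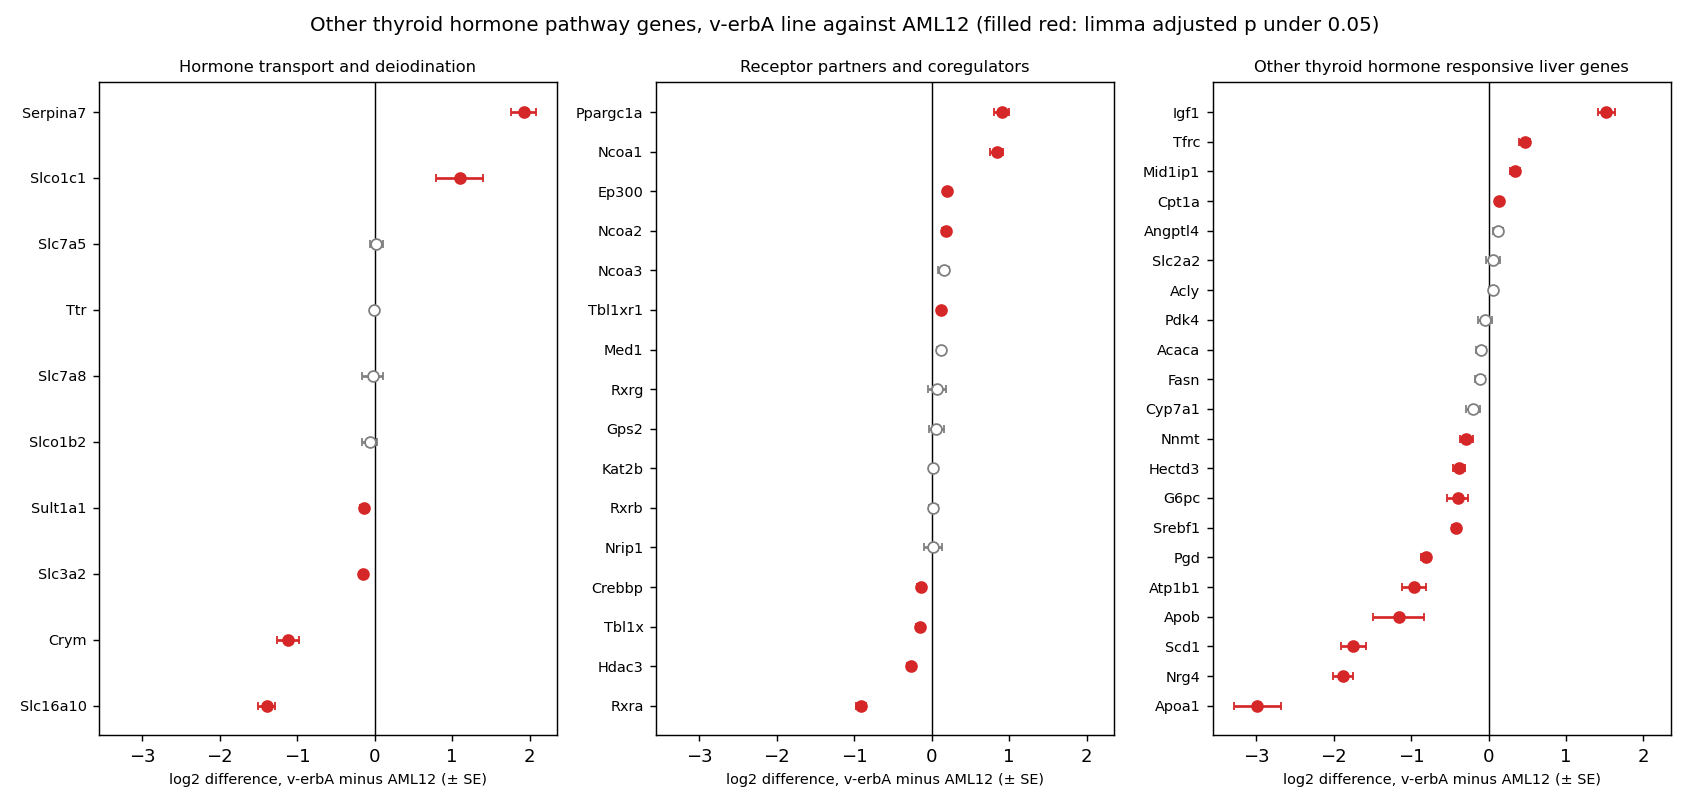
Log2 difference between the v-erbA line and AML12 with its SE for the tested genes of 3 lists of the thyroid hormone pathway, 1 probe set per gene; filled red points passed (limma adjusted p under 0.05). Members lie on both sides of 0 in each list, from Apoa1 at -2.98 to Serpina7 at 1.92. Serpina7 met the filter only through its v-erbA arrays.

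Profiles most like those of Thra and Klf9 were sought by the root mean square difference of mean-centred log2 values over the 8 arrays, on the probe set with the highest mean. For Thra 1454675_at the nearest of 21316 probe sets of other genes were those of Fis1 (0.03), Myo1c (0.04) and Rce1 (0.05), against a median of 0.28. For Klf9 1456341_a_at they were Phf14, Arfgef1 and Tsc22d2 (0.03 each), against a median of 0.19. These measures describe likeness over 8 arrays that share lines, treatments and times.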

How the data were processed

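Total RNA of 8 cultures was hybridised to Affymetrix arrays, per the labels' protocols. The authors deposited linear signal intensities, which run from 0 to 12275 units. How probes were summarized and arrays scaled is not given in the sources used here, and the deposited scaling was kept. Precision is limited by the number of arrays. Of 45037 probe sets, 1 without a value on some arrays was left out. Genes were named through the platform annotation, and all 10 gene identifiers were found in the RefSeq table of GRCm38.p6. Values were transformed to log2(signal + 19.9), the offset being the 20th percentile of all values. Probe sets with at least 2 of 8 arrays above the pooled median (24955, or 55.4%) were fitted with limma 3.58.1 (R 4.3.3), using a trended variance and Benjamini-Hochberg adjustment over all of them; the threshold was 0.05. Line, treatment and time came from an additive model (4 residual degrees of freedom), differences of effects from models with 1 interaction (3 degrees of freedom). The fits were tested on simulated data. Where all arrays of the lower group were under the pooled median, the fold is a bound, the mean signal of the higher group over that level. Figures used matplotlib 3.10.9 in Python 3.11.15.

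All probe sets of the 10 genes are named. From each further list the rule names up to 2 genes with the largest rise and 2 with the largest fall for v-erbA, and 1 and 1 for RA, among passing genes that moved alike in all 4 pairs; other genes were named after their values were seen. The members and lists were chosen with earlier results of these data known. Alternatives changed the offset, filter, scaling, trend, model and probe set choice and left out each array. Of the lists, 10 genes and 1 hepatocyte marker were not analysed here.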

Additional observations from a re-analysis of the deposited data

How the results depend on the processing

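For the line, 15 of the 19 tested probe sets passed, and 12 to 15 did when 1 array was left out; with 1 probe set per gene, which leaves 7 members in the test, the count was 5. For time the count of 11 was 7 to 10 when 1 array was left out, 6 with only probe sets above the level on all 8 arrays, 7 without the mean-variance trend and 5 with 1 probe set per gene; the filter and the single probe set per gene test fewer members (13 and 7), and the cause of the change without the trend was not tested. The counts of 0 for RA and for the 3 differences of effects were 0 under every alternative run. No tested probe set that passed for line or time changed sign under any alternative. Both Me1 probe sets, Gpd2 1417434_at and 1428323_at, Thra 1454675_at, Thrsp 1424737_at and all 6 tested Klf9 probe sets kept their line call under every alternative that tested them. Without the trend Gpd2 1452741_s_at and 1428324_at lost theirs (adjusted p = 0.0532 and 0.0615). The list counts were recomputed under the same settings, an alternative added after seeing the data. They ranged from 2 to 6 for hormone transport (2 of 4 genes above the level on all 8 arrays), 6 to 9 for receptor partners and 11 to 16 for the other responsive genes. No paired analysis was possible because the labels carry no replicate numbers to use as a block; the 4 pairs counted in the text match arrays by treatment and time, or by line, which the fits already hold as terms. Signals near the pooled median, as for Thrsp, Hr, Dio1, Thrb and Fgf21, limit what can be said of these genes.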
